A study of Mus musculus with 6 samples.

Results

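Mouse cell cycle genes were examined in livers that carried a human tumor, in which mouse counts stand for the host cells and human counts for the tumor cells. The 46 genes were a list of S-phase and mitotic genes, with a few G1 regulators, that had a total of at least 10 mouse counts over the 6 libraries. They were 46 of the 18018 mouse genes tested and of the 56884 mouse genes in the table, and all 46 passed that limit. Cdc25c, a phosphatase that activates the mitotic kinase, stood exactly at the limit with a total of 10 counts. No listed gene fell below it.

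The mice were male athymic BALB/c (nu/nu) animals, given as 6 weeks old, with cells of the human hepatocellular carcinoma line QGY-7703 implanted in the liver. All received an AAV8 vector through the tail vein 1 week after implantation and were followed for 3 more weeks. The siControl group (3 libraries), labelled wild type, received a control siRNA, and the siAATF group (3 libraries), labelled knockdown, an siRNA specific to mouse Aatf. The TBG promoter that drove the siRNA is active in hepatocytes, so the other host cells were not its direct target, and athymic mice lack most T cells. The labels give the tissue of every library as liver. They do not say whether a library was cut from tumor or from surrounding liver, or whether the libraries of a group came from separate mice, so p-values measure the spread between these libraries, which may be technical.

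A dividing cell passes from G1, in which D cyclins and E2F factors commit it to division, through S phase, in which DNA is copied, to mitosis, in which the spindle separates the chromosomes. S-phase genes are largely switched on through E2F factors, and genes of G2 and mitosis later, through MuvB complexes at CHR elements and NF-Y at CCAAT elements. In an adult liver nearly all hepatocytes are at rest, whereas tumor stroma holds dividing endothelial cells, fibroblasts and leukocytes.

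The libraries differed greatly in their mouse depth. The mouse counts ranged from 213022 to 913584 in siControl, which was 0.778 to 1.93% of all gene counts, and from 11835898 to 42563694 in siAATF, which was 97.9 to 99.0%. Levels are given as CPM, counts scaled to a common mouse total per library after TMM normalization. On this scale 3 counts in a library were worth 1.67 to 7.23 CPM for siControl libraries but 0.103 to 0.605 CPM for siAATF libraries, and a gene with 0 counts could still lie below these levels. These limits cover counting error only, since PCR copies were counted as reads. The 8 hepatocyte markers, among them Alb, were all higher in siAATF, with summed levels of 1930 to 5376 CPM for siControl libraries and 30746 to 80081 CPM for siAATF libraries. The group labels therefore went together with a different makeup of the mouse RNA. Fewer cells of a type and less RNA per cell cannot be told apart in such bulk samples. Aatf itself spanned 2.42 to 12.8 CPM among the siControl libraries and 13.3 to 21.99 CPM among the siAATF ones (log2 fold change 0.93, SE 0.47, Benjamini-Hochberg adjusted p = 0.152 by the quasi-likelihood test of edgeR, as for every adjusted p below), so it was not lower in the libraries labelled siAATF. Directions below refer to these labels.

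The promoter stretches of 5 of the genes are shown because they hold elements known from S-phase and mitotic genes, or lack them. Each is the 150 bases before the annotated start, in the GRCm39 genome, on the gene's own strand, which was the minus strand for all 5. Capitals mark matches to 3 motifs on either strand, the CHR motif (TTTGAA and its variant TTCGAA), the NF-Y box (spelled CCAAT), and the E2F motif (TTTCCCGC, TTTCGCGC, TTTGCCGC or TTTGGCGC). Top2a and Cdk1 stand for the mitotic genes, Mcm6 and Mcm4 for the S-phase genes, and Mcm7 for a gene with no match. In the window of 250 bases before to 50 after the start, 13 of the 46 genes held no match, and 8 of these were lower in siAATF, among them Pcna, Ccnd1 and Foxm1, against 39 of the 46 genes and 14.4% of all mouse genes tested.
Top2a, chr11:98915042-98915191: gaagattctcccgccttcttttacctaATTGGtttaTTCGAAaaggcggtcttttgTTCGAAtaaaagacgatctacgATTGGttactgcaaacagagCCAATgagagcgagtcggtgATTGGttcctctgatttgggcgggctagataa
Cdk1, chr10:69188769-69188918: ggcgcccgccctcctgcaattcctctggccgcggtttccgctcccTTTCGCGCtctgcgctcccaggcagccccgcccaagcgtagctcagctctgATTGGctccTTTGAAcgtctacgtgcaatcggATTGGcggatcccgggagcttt
Mcm6, chr1:128287453-128287602: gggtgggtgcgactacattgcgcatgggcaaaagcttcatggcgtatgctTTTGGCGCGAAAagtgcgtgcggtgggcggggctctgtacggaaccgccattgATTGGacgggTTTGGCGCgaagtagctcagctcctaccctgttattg
Mcm4, chr16:15455265-15455414: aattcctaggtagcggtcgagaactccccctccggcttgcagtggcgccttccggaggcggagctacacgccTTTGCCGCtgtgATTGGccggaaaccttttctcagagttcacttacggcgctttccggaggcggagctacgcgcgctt
Mcm7, chr5:138170685-138170834: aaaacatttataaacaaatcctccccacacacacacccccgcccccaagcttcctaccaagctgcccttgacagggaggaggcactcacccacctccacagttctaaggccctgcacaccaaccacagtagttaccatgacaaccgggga

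The Top2a stretch held 2 CHR and 4 CCAAT matches and no E2F match. The Cdk1 stretch held 1 CHR match, 2 CCAAT matches and 1 E2F match. In Mcm6, 3 E2F matches were found, of which 1 pair overlapped on opposite strands, and 1 CCAAT match, whereas Mcm4 held 1 E2F and 1 CCAAT match. Over the window from 250 bases before to 50 bases from the start on, a CHR match was present in 17 of the 26 mitotic genes (65.4%), in 2 of the 14 S-phase genes (14.3%) and in 18.7% of all 21757 protein-coding genes. An E2F match was present in 5 of the 14 S-phase genes (35.7%), in 1 of the 26 mitotic genes (3.85%) and in 2.82% of all protein-coding genes. CCAAT was found in 73.1% of the mitotic and 71.4% of the S-phase genes, against 39.9% of all. CHR and CCAAT stood together in 61.5% of the mitotic genes and in 8.23% of all. A match describes the letters only and is not evidence of a bound factor.

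**Figure D1:**
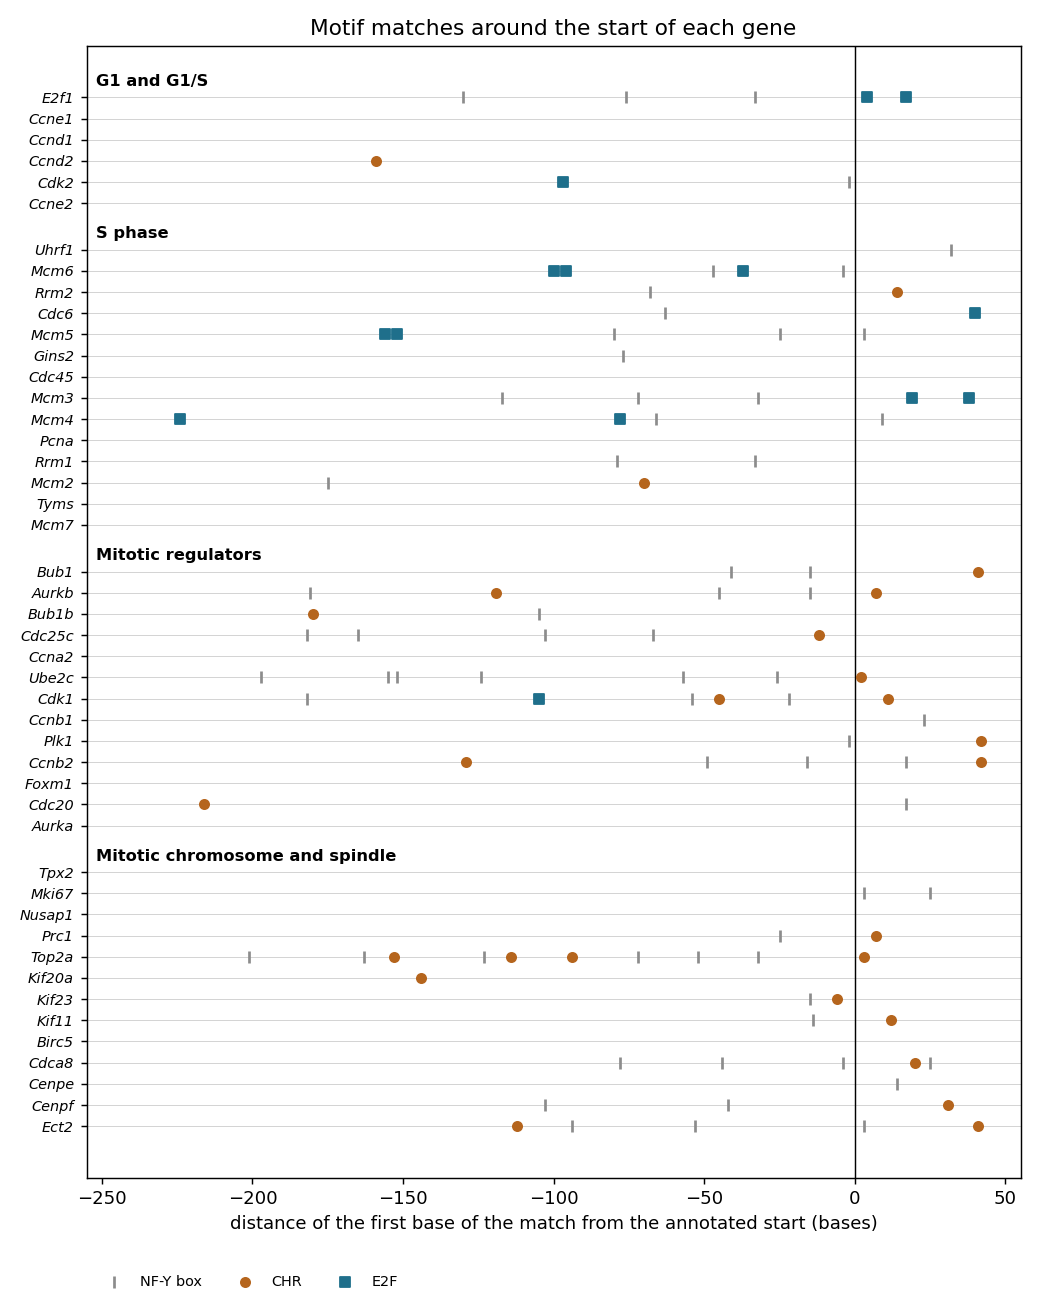
Matches to the CHR, NF-Y box (CCAAT) and E2F motifs around the annotated start of each of the 46 genes, with the distance of the first base of the match from the start in bases on the x axis and 1 line per gene, grouped by role. CHR circles lie on 17 of the 26 mitotic lines and 2 of the 14 S-phase lines, and E2F squares on 5 S-phase lines and 1 mitotic line.

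Of the 46 cell cycle genes, 39 were lower in siAATF than in siControl and 0 were higher at an adjusted p under 0.05, while 14.4% of all mouse genes tested were lower, 17.6% higher and 32% called in either direction (quasi-likelihood test of edgeR, Benjamini-Hochberg adjusted over all genes). None was higher at an unadjusted p under 0.05 either, and DESeq2 also called 0 higher. All 46 had a negative log2 fold change, with a median of -3.17, whereas the median over all genes tested was 0.50. The study called genes with DESeq2, by a raw p under 0.05 together with a difference of at least 2 on the log2 scale. With these thresholds put on the edgeR fit, 36 were lower and 0 higher, against 13.1% and 13.6% of all genes tested. Every siControl library lay above every siAATF library for 37 genes, against 18.1% of all genes, and the reverse held for 0, against 34.5%. In 9 genes the groups overlapped. The 7 genes without a call by edgeR were Ccne1, Ccne2, Tyms, Mcm7, Cdc20, Aurka and Ect2. Of these, Cdc20 was lower by the study's thresholds. DESeq2 called 41 of the 46 genes lower, against 16.3% of all genes. The count of lower genes fell to 23 without siControl replicate 3, the deepest siControl library, when 9.7% of all genes were lower.

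**Figure D2:**
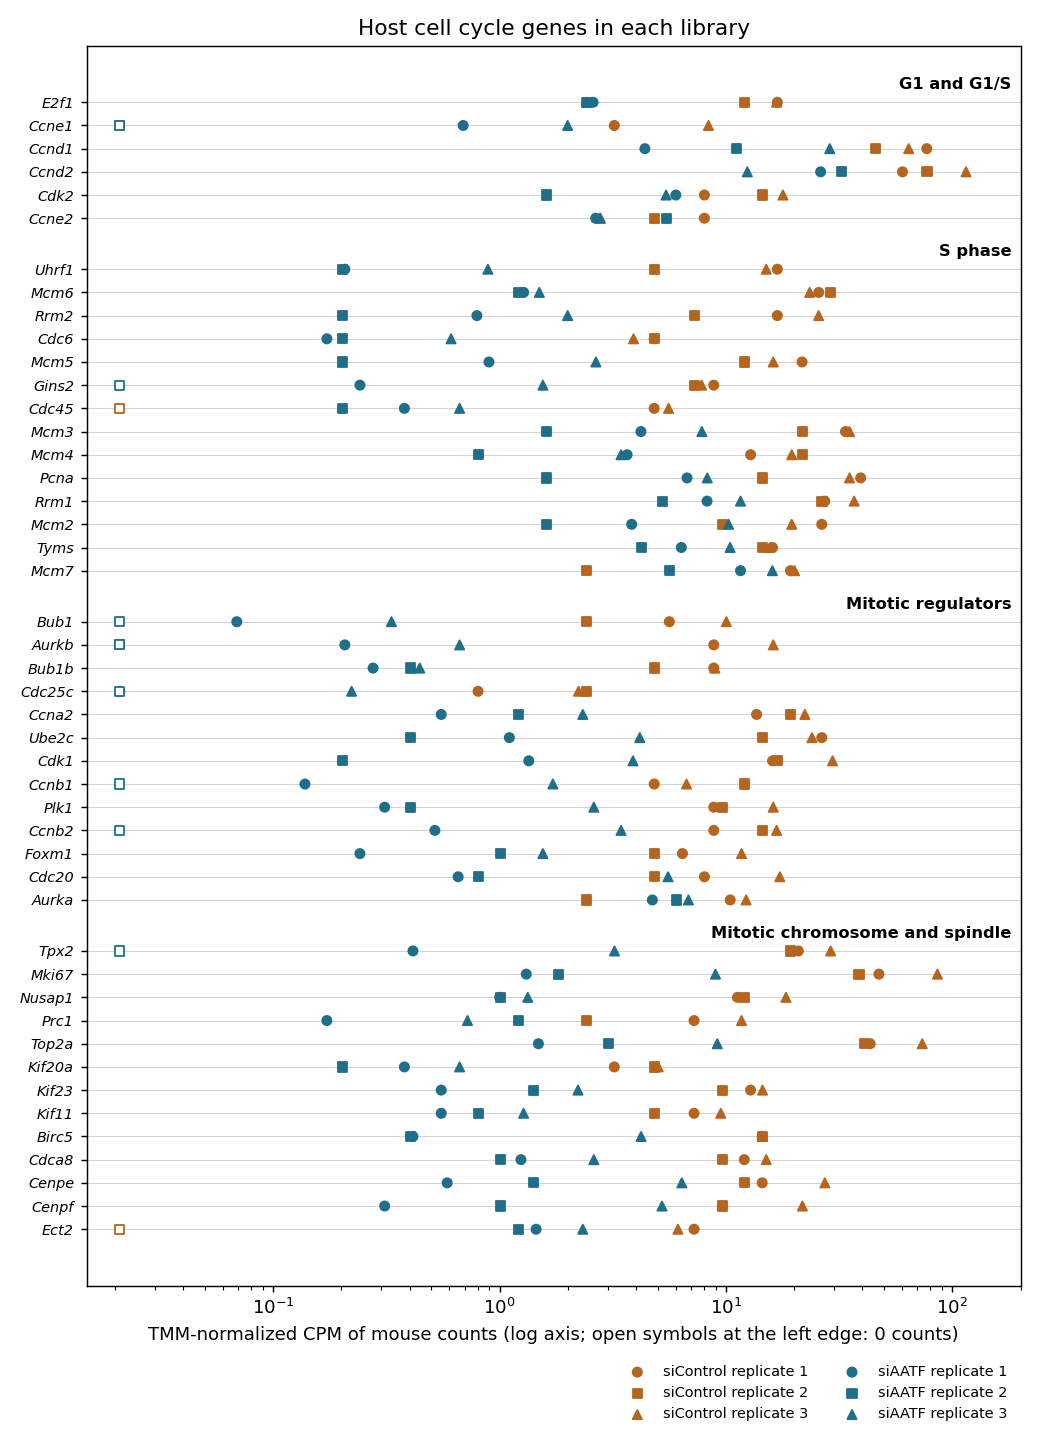
TMM-normalized CPM of mouse counts (log axis) of the 46 cell cycle genes in each library, with siControl in brown, siAATF in blue and the replicate given by the symbol. Open symbols at the left edge are 0 counts. The 3 siControl points lie to the right of the 3 siAATF points for 37 genes.

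**Figure D3:**
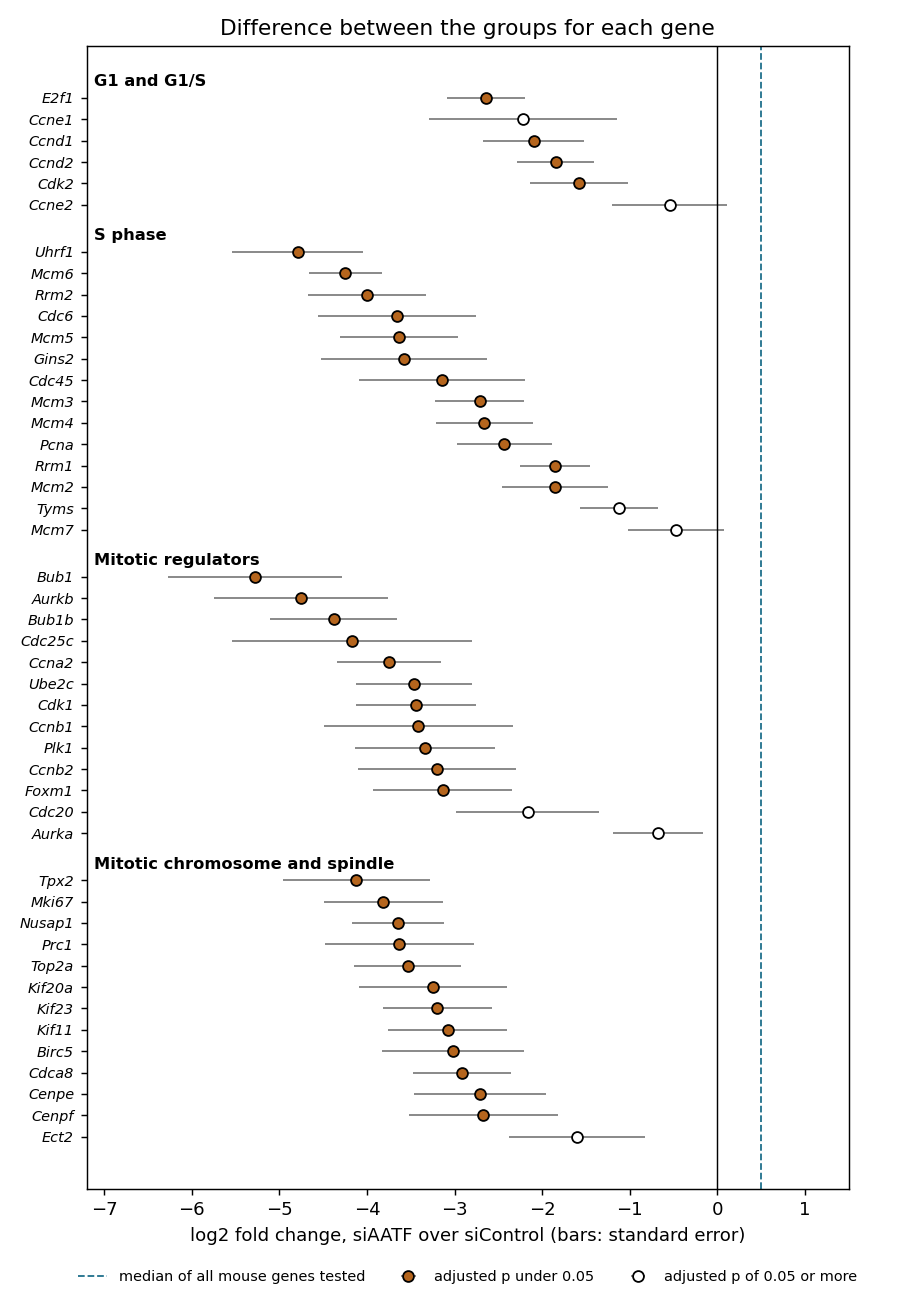
Fitted log2 fold change of siAATF over siControl for each of the 46 genes, with bars for the standard error and filled points for an adjusted p under 0.05. All 46 points lie below 0, and the dashed line marks the median of all mouse genes tested, 0.50.

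Of the 6 G1 and G1/S regulators, 4 were lower, and the median over the 6 was -1.97 on the log2 scale. E2f1, a transcription factor that switches on S-phase genes, was at 16.9, 12.1 and 16.7 CPM in siControl replicates 1 to 3 and at 2.59, 2.42 and 2.44 CPM in siAATF replicates 1 to 3. The siAATF libraries lay very close to each other and all below siControl (log2 fold change -2.64, SE 0.44, adjusted p = 0.000731). Ccnd1, the cyclin that drives G1, was at 77.1, 45.9 and 64.1 CPM in siControl and at 4.38, 11.1 and 28.7 CPM in siAATF. The groups did not overlap, but the siAATF libraries were widely spread, and the log2 fold change was -2.10 (SE 0.58, adjusted p = 0.0144). Ccnd2, a second D cyclin, was at 60.2, 77.3 and 115 CPM against 26.2, 32.3 and 12.4 CPM. The siAATF library with the highest level of Ccnd1, replicate 3, had the lowest level of Ccnd2. The log2 fold change of Ccnd2 was -1.85 (SE 0.44, adjusted p = 0.00681), and without siControl replicate 3 it was -1.55 with an adjusted p of 0.0511. Cdk2, the partner kinase of the E and A cyclins, was also lower (-1.58, adjusted p = 0.0465). The E cyclins, which open S phase, gave no call. Ccne1 had 0 counts in 1 library of each group, and Ccne2 was at 8.03, 4.83 and 2.79 CPM against 2.66, 5.45 and 2.77 CPM, with overlapping groups.

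Of the 14 S-phase genes, 12 were lower (median log2 fold change -2.93). Mcm6, a subunit of the MCM helicase that unwinds DNA at the fork, was at 25.7, 29.0 and 23.4 CPM in siControl and at 1.28, 1.21 and 1.498 CPM in siAATF. The libraries of each group lay close together and the groups were 19.0-fold apart (log2 fold change -4.25, SE 0.42), with the smallest adjusted p of the 46 genes (3.83e-05). Uhrf1, which guides DNA methylation to newly copied DNA, was at 16.9, 4.83 and 15.1 CPM against 0.207, 0.202 and 0.888 CPM. Its log2 fold change of -4.79 (SE 0.74, adjusted p = 0.000443) was the largest in size among the S-phase genes, and it rested on 1 to 16 counts per siAATF library. Rrm2, the small subunit of ribonucleotide reductase that supplies deoxynucleotides, was at 16.9, 7.25 and 25.7 CPM against 0.794, 0.202 and 2.00 CPM (log2 fold change -4.00, SE 0.67, adjusted p = 0.000747). Rrm1, the large subunit of the same enzyme, was at 27.3, 26.6 and 36.8 CPM against 8.25, 5.24 and 11.6 CPM, with a log2 fold change of -1.85. Pcna, the sliding clamp of the replicative polymerases, was at 39.3, 14.5 and 35.1 CPM against 6.73, 1.61 and 8.27 CPM (-2.43, SE 0.54, adjusted p = 0.00447). Reads from Pcna and its processed pseudogene Pcna-ps2, which had 197 counts in all, may not be fully separable.

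The 6 subunits of the MCM2-7 helicase, which form 1 ring in equal number, gave log2 fold changes from -4.25 to -0.47, and the differences between subunits were not tested. Mcm6 fell by 4.25, Mcm5 by 3.63, Mcm3 by 2.71, Mcm4 by 2.66 and Mcm2 by 1.85 on the log2 scale. Mcm7 was at 19.3, 2.42 and 20.1 CPM in siControl and at 11.6, 5.65 and 16.0 CPM in siAATF, with overlapping groups (log2 fold change -0.47, SE 0.54, adjusted p = 0.526). It was called lower with scaling by library size alone (-2.21, adjusted p = 0.00489) and after thinning (-5.07, adjusted p = 0.0248). The siControl replicate 2 value was a single count. Mcm7 shares its locus with Cops6 on the opposite strand, which had 5282 counts in all, and whether the counting used the strand is not given in the sources used here. Tyms, which makes thymidylate, had non-overlapping groups at 16.1, 14.5 and 15.6 CPM against 6.35, 4.24 and 10.4 CPM but an adjusted p of 0.0730. Gins2, Cdc6 and Cdc45, which load or start the helicase, were lower by 3.57, 3.66 and 3.15 on the log2 scale, and none of them passed 5.58 CPM in siControl except Gins2, at 7.25 to 8.83 CPM.

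Of the 26 mitotic genes, 23 were lower (median log2 fold change -3.37). Without siControl replicate 3 this count was 12, when 9.7% of all genes were lower. Among the 13 regulators, cyclins, kinases and checkpoint genes, 11 were lower. Ccna2, the cyclin of S phase and G2, was at 13.6, 19.3 and 22.3 CPM in siControl and at 0.552, 1.21 and 2.33 CPM in siAATF (log2 fold change -3.75, SE 0.59, adjusted p = 0.000503). Bub1b, a spindle checkpoint protein, was at 8.83, 4.83 and 8.92 CPM against 0.276, 0.403 and 0.444 CPM (-4.38, SE 0.72, adjusted p = 0.000658). Bub1, the checkpoint kinase, had the largest fall of all 46 genes, at 5.62, 2.42 and 10.04 CPM against 0.0690, 0 and 0.333 CPM. Its log2 fold change was -5.27 (SE 0.99, adjusted p = 0.00152), from 7, 1 and 18 counts in siControl and 2, 0 and 6 counts in siAATF. Cdk1, the mitotic kinase, was at 16.1, 16.9 and 29.6 CPM against 1.35, 0.202 and 3.88 CPM, with no overlap. Its partner cyclins Ccnb1 and Ccnb2 fell by 3.41 and 3.20 on the log2 scale, and each had 0 counts in siAATF replicate 2. Foxm1, a transcription factor of the mitotic program, was at 6.42, 4.83 and 11.7 CPM against 0.242, 1.01 and 1.55 CPM, a fall of 3.14.

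The Aurora kinases gave different calls. Aurkb, of the chromosomal passenger complex, was at 8.83, 0 and 16.2 CPM in siControl against 0.207, 0 and 0.666 CPM in siAATF (log2 fold change -4.75, adjusted p = 0.00304), and the groups overlapped, since siControl replicate 2 had 0 counts. Aurka, of the spindle poles, was at 10.4, 2.42 and 12.3 CPM against 4.73, 6.05 and 6.82 CPM (-0.68, SE 0.52, adjusted p = 0.336). The difference between the kinases was not tested. Cdc20, which activates the anaphase-promoting complex, was at 8.03, 4.83 and 17.3 CPM against 0.656, 0.807 and 5.55 CPM, and its log2 fold change of -2.16 did not pass the adjustment (adjusted p = 0.0605). Its locus overlaps that of Elovl1 on the opposite strand, with 3612 counts.

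Of the 13 chromosome and spindle genes, 12 were lower. Mki67 (chr7:135291513-135318090, GRCm39), which encodes the Ki-67 protein that coats mitotic chromosomes and marks dividing cells, was at 47.4, 38.7 and 85.9 CPM in siControl and at 1.31, 1.82 and 8.99 CPM in siAATF. This was 57.3 ± 25.1 CPM against 4.04 ± 4.29 CPM (SD, n = 3 each), a log2 fold change of -3.81 (SE 0.68, adjusted p = 0.00106), which was -5.22 without siAATF replicate 3. Top2a (chr11:98883769-98915015), the topoisomerase that untangles sister chromosomes, was at 43.4, 41.1 and 73.6 CPM against 1.48, 3.03 and 9.15 CPM (-3.53, SE 0.61, adjusted p = 0.000879). For both genes siAATF replicate 3 stood above the other siAATF libraries and below every siControl library. Nusap1, which bundles spindle microtubules, was at 11.2, 12.1 and 18.4 CPM against 1.00, 1.01 and 1.33 CPM (-3.65, SE 0.52, adjusted p = 0.000265), without such a high siAATF library. Birc5, or survivin, was at 14.5 CPM in every siControl library, and in siAATF at 0.414, 0.403 and 4.22 CPM. The motors Kif11, Kif20a and Kif23 fell by 3.08, 3.25 and 3.19 on the log2 scale. Ect2, which starts the cleavage furrow, gave no call (-1.60, adjusted p = 0.139) and had 0 counts in siControl replicate 2.

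Within a group, most of the genes were highest in the same library. In siAATF, replicate 3 had the highest level for 40 of the 46 genes and for 25 of the 26 mitotic genes. In siControl, replicate 3 was the highest for 30 of the 46 genes and for 22 of the 26 mitotic ones. How many of all mouse genes were highest in these libraries was not counted. The pattern is therefore not shown to be particular to the cell cycle genes. Summed over the mitotic genes, the levels were 339, 287 and 527 CPM in siControl and 20.01, 25.0 and 82.0 CPM in siAATF. The summed neutrophil markers also set siAATF replicate 3 apart, at 90.7, 1899 and 1401 CPM in siControl and 2.80, 2.22 and 137 CPM in siAATF. Of the 6 markers edgeR called 5 lower in siAATF and DESeq2 called 3, and the groups overlapped for 5. In counts, S100a9 had 42, 9 and 1364 in siAATF. The defining marker Ly6g was at 0, 0 and 4 counts in siAATF and at 0, 3 and 5 in siControl. Summed macrophage markers were also highest in siAATF replicate 3, at 181, 103 and 273 CPM in siAATF. Endothelial markers (191, 75.6 and 51.8 CPM) and fibroblast markers (494, 384 and 344 CPM) were lowest there. The part of neutrophils or of other cell types in the cell cycle counts was not tested. Without siAATF replicate 3, 41 of the 45 cell cycle genes still tested were lower, against 14.7% of all genes. The log2 fold changes were then -4.62 for Top2a, -3.01 for Ccnd1, -5.82 for Uhrf1, -4.76 for Rrm2, -4.51 for Ccna2 and -6.47 for Bub1.

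Over all 46 genes the summed level was 787, 618 and 1031 CPM in siControl and 111, 101 and 214 CPM in siAATF. This was 812 ± 207 against 142 ± 62.3 CPM (SD, n = 3 each), a ratio of 5.72 (exact permutation test, two-sided, p = 0.1, the smallest that 3 against 3 allow). On the log2 scale the difference was -2.52, and it was -4.34 with scaling by library size alone and -3.87 after thinning all libraries to the smallest mouse total. The ratio was 9.07 for the mitotic genes, 4.89 for the S-phase genes and 3.71 for the G1 genes. Without siAATF replicate 3 the mitotic ratio was 17.1, and leaving out any other library gave 7.18 to 10.2. Per length of the gene, Pcna, Ccnd1 and Ccnd2 had the highest mean levels in siControl, at 19.5, 16.7 and 12.5 CPM per kb. In siAATF the highest were Ccnd1, Mcm7 and Pcna, at 3.94, 3.74 and 3.65 CPM per kb, and neither order separated its first genes beyond the spread between libraries.

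What the counts were divided by decided the direction of the sum. When the counts of both species were the denominator, the summed level in CPM was 26.8, 9.35 and 34.2 in siControl and 74.9, 41.3 and 109 in siAATF, so the siAATF libraries were all higher (log2 ratio 1.68, exact permutation test, p = 0.1). On this scale every siAATF library lay above every siControl library for 11 of the 46 genes, against 83.9% of all mouse genes tested, and the reverse held for 0 of the 46, against 0.655%. The groups overlapped for 35 genes. The mitotic sum overlapped on this scale, at 11.6, 4.35 and 17.5 against 13.5, 10.3 and 41.8. The same host genes were thus a smaller share of the mouse counts in siAATF but not a smaller share of all counts. In siControl the counts of the 46 genes came to 0.139, 0.120 and 0.202% of the mouse counts and to 0.00274, 0.000943 and 0.00348% of the human counts, and in siAATF to 0.00757, 0.00422 and 0.0110% of the mouse counts. Reads of these conserved genes that matched both species had been discarded, and human reads among the mouse counts were not tested.

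**Figure D4:**
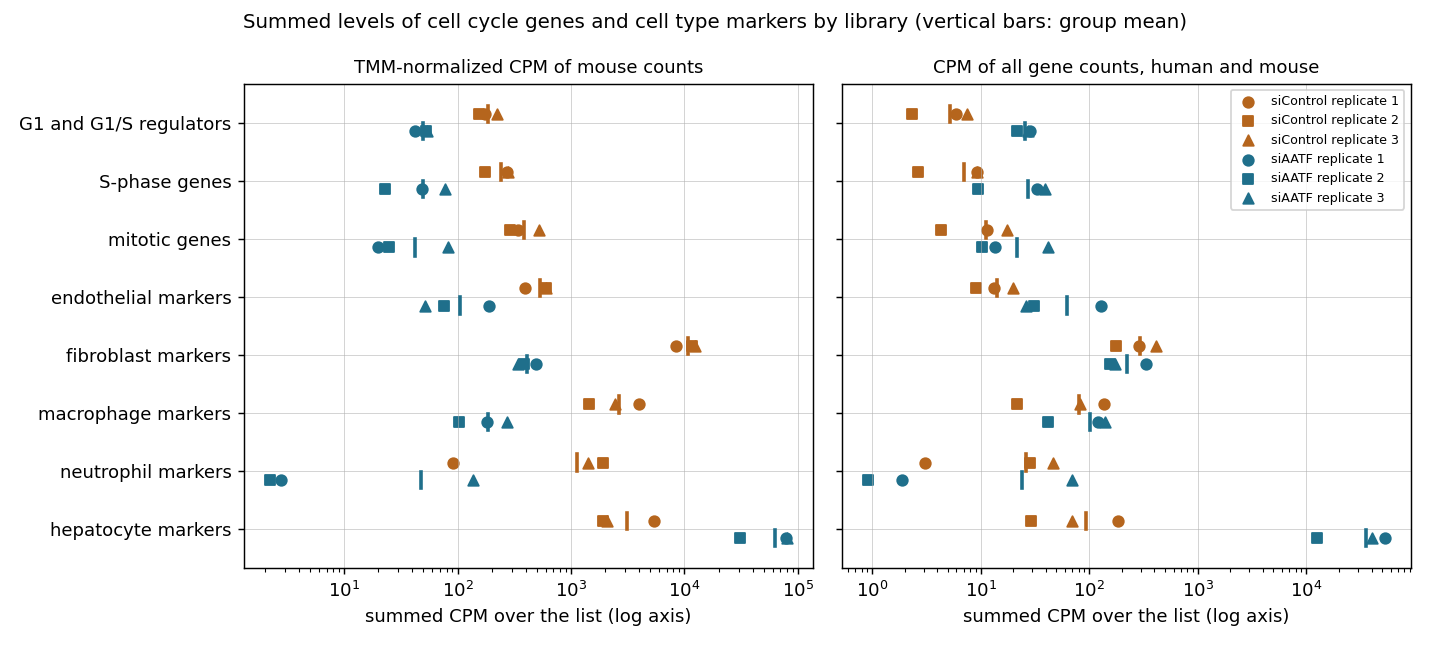
Summed level of 3 groups of cell cycle genes and 5 lists of cell type markers in each library (log axes), as TMM-normalized CPM of mouse counts on the left and as CPM of all gene counts on the right, with vertical bars for the group mean. The 3 groups of cell cycle genes lie lower in siAATF on the left panel. On the right the G1 sums lie higher in siAATF and the mitotic sums overlap. The S-phase sums barely separate there, at 9.37 in siControl replicate 1 and 9.43 in siAATF replicate 2.

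Ratios within a library do not depend on this scaling. The ratio of mitotic to S-phase levels was 1.23, 1.63 and 1.88 in siControl and 0.412, 1.09 and 1.06 in siAATF. All siAATF libraries were below all siControl libraries, by 1.00 on the log2 scale in the mean (exact permutation test, two-sided, p = 0.1, the smallest possible). The log2 difference was -0.54 without siAATF replicate 1, the library with the lowest ratio. The S-phase counts include those of Mcm7, which may hold reads of Cops6. Mcm7 gave 24, 1 and 36 of the 342, 73 and 501 S-phase counts in siControl. In siAATF it gave 336, 28 and 289 of 1408, 114 and 1401. Whether the groups stay apart without Mcm7 was not tested. Against markers of the host cells that can divide in a tumor, the picture depended on the cell type. The 46 genes relative to 8 endothelial markers gave 2.01, 1.02 and 1.72 in siControl and 0.583, 1.33 and 4.12 in siAATF, with full overlap (log2 difference -0.05, exact permutation test, p = 1). Relative to 8 macrophage markers the ratio was 0.196, 0.430 and 0.418 against 0.616, 0.982 and 0.783, higher in every siAATF library (1.25, exact permutation test, p = 0.1). Relative to 8 fibroblast markers it was 0.0941, 0.0529 and 0.0829 against 0.225, 0.263 and 0.622 (2.16, exact permutation test, p = 0.1). A single fibroblast marker, Dcn (decorin), gave no call with edgeR. It made up 5.24%, 4.91% and 6.16% of the fibroblast marker counts in siControl but 72.6%, 81.8% and 73.9% in siAATF. Without Dcn, an alternative chosen after seeing the data, the ratio was 0.0993, 0.0556 and 0.0883 against 0.822, 1.45 and 2.38 (4.17, exact permutation test, p = 0.1). Among these markers edgeR called 6 of 8 endothelial, 6 of 8 macrophage and 7 of 8 fibroblast genes lower in siAATF. DESeq2 called 6, 6 and 8. The mitotic genes alone, relative to the 3 lists together, overlapped between the groups (0.91, exact permutation test, p = 0.3), whereas the S-phase genes did not (1.92, p = 0.1 in the same exact permutation test). With Dcn left out of the lists neither overlapped (1.73 for the mitotic and 2.74 for the S-phase genes, exact permutation test, p = 0.1 for each). Which cells held the cell cycle transcripts was not tested.

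**Figure D5:**
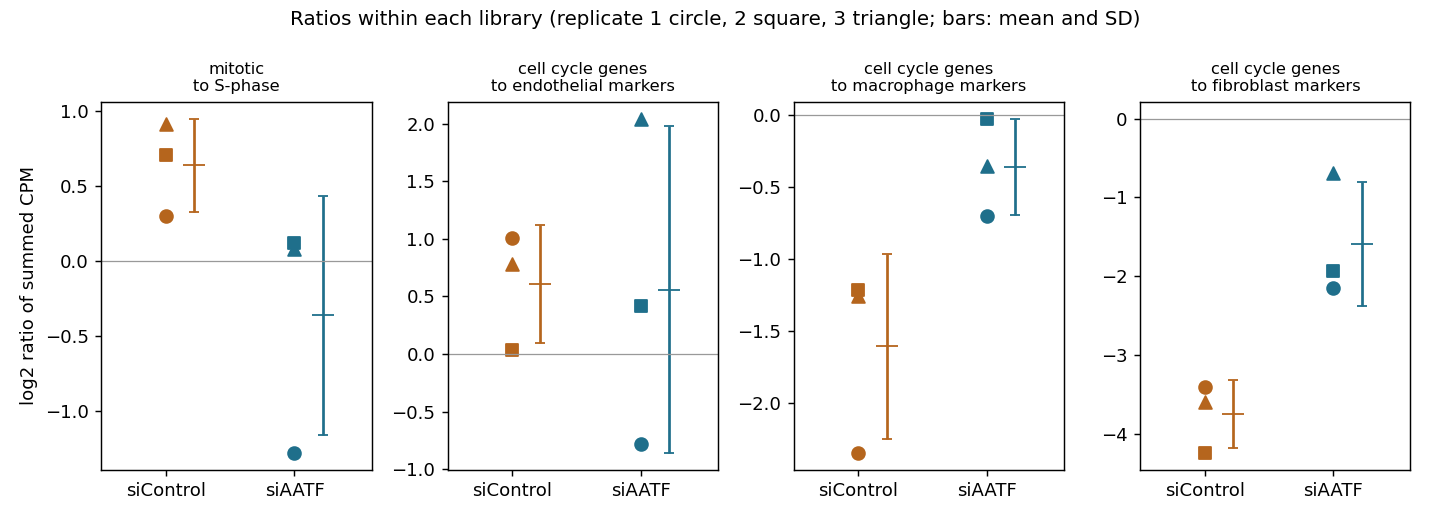
Log2 ratios of summed levels within each library, with points for the libraries and bars for the mean and SD of each group. The mitotic to S-phase ratio is lower in all siAATF libraries, the ratio to endothelial markers overlaps, and the ratios to macrophage and fibroblast markers are higher in all siAATF libraries.

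Other genes of the same pathways were counted list by list, beside the 14.4% lower and 17.6% higher among all genes tested. Among 17 other mitotic kinesins, spindle and cytokinesis genes tested, 13 were lower and 0 higher, the median was -3.09 on the log2 scale, and Kif14 did not reach 10 counts. Anln, which organizes the cleavage ring, was at 7.23, 14.5 and 11.7 CPM against 0.345, 0.403 and 0.777 CPM (-4.35, adjusted p = 0.000441). Of 15 kinetochore and checkpoint genes 6 were lower. Cenpa, the histone that marks centromeres, was at 16.1, 24.2 and 17.8 CPM against 4.35, 2.62 and 5.88 CPM (-2.10, adjusted p = 0.00336). Of 14 condensin and cohesion genes 6 were lower, led by Ncapd2, a condensin subunit (-2.97, adjusted p = 0.00138), and the list's median was -0.68. The 13 genes of the anaphase-promoting complex gave 0 calls with edgeR, 1 at an unadjusted p under 0.05 and 1 call with DESeq2, with a median of -0.42.

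Most DNA replication genes outside the 46 gave no call. Of 16 licensing and firing genes 5 were lower and 1 was higher. Cdt1, which loads the helicase, was at 12.8, 12.1 and 12.8 CPM against 1.28, 0.807 and 2.83 CPM (-2.88, adjusted p = 0.00231). Mcm10, which acts at the start of replication, went the other way, at 4.82, 2.42 and 8.37 CPM against 128, 43.0 and 30.6 CPM (3.50, SE 0.63, adjusted p = 0.00119), with every siAATF library above every siControl library. Of 22 polymerase, fork and nucleotide supply genes tested 1 was lower and 2 were higher, below the shares of all genes in both directions, and Fen1 was not tested. Lig1, which joins the fragments of the lagging strand, was at 27.3, 12.1 and 27.3 CPM against 3.76, 3.83 and 4.94 CPM (-2.47, adjusted p = 0.000821). Among the brakes, 5 of 8 CDK inhibitors were lower as well, and 0 were higher at an adjusted p under 0.05. Cdkn1c pointed the other way, with 1, 0 and 0 counts in siControl against 79, 16 and 38 in siAATF. It was higher by the study's thresholds on the edgeR fit (log2 fold change 3.12, unadjusted p = 0.0239, adjusted p = 0.0678). Cdkn2b, an inhibitor of the G1 kinases, was at 7.23, 9.66 and 8.92 CPM against 0.483, 0 and 0.166 CPM (-4.90, adjusted p = 0.000949). Of 19 other G1 cyclins, kinases and pocket proteins 5 were lower, led by Rbl1, a relative of the retinoblastoma protein (-2.60, adjusted p = 0.00519), and the median was -0.40.

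Of the remaining host cell markers, 3 of 7 lymphocyte and NK markers tested and 2 of 5 cholangiocyte markers tested were lower and 0 were higher. None of the 6 erythroid precursor markers was called by edgeR, by DESeq2 or at an unadjusted p under 0.05.

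The depth limits single genes, and group counts moved with it as well, as the thinned counts below show. In 10 of the 46 genes at least 1 library had 0 counts, and siControl replicate 2 and siAATF replicate 2 each had at most 3 counts for 19 genes. In position, 23 of the 46 overlap another gene of the table, for example Cdc45 with Ufd1 (1923 counts).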

How the data were processed

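Per the labels and the study's methods, RNA was amplified with a SMART-Seq kit, reads were aligned with STAR 2.7.11 to joined human and mouse (GRCm39) genomes, and reads matching several places or both species were discarded. The authors deposited raw featureCounts (2.0.1) gene counts, which were used as they are. Names came from GENCODE (561 of 56884 mouse genes stayed unnamed). Human genes carry no names in the deposited counts and no human annotation was used, so human counterparts were not analysed here. edgeR 4.0.16 (R 4.3.3, limma 3.58.1) compared 3 siControl with 3 siAATF libraries: TMM, total of at least 10 counts, group only, quasi-likelihood test, Benjamini-Hochberg adjustment over 18018 genes. This was tested on simulated data. Sums and ratios were compared by exact permutation tests. The members and lists were chosen with earlier results of these data known. Named genes are Mki67, Top2a, Pcna and Ccnd1, the 3 called genes of each group with the smallest adjusted p and no overlap, the 3 highest per length in siAATF, and the leading called gene of each pathway list in each direction. A gene that this rule names is not reported here. The others named were chosen after their values were seen. Alternatives were DESeq2 1.42.0, limma-voom, 3 other scalings, 3 filters, thinning, a replicate block, leaving out each library, and CPM of all gene counts. Promoters came from GRCm39 and the starts of a later GENCODE release than the one counted on. These starts differed from the deposited gene ends by over 50 bases for 14 of the 46 genes and by up to 793 bases (Ccne2).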

Additional observations from a re-analysis of the deposited data

How the results depend on the processing

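In all 17 alternatives to the main test, 0 of the 46 genes were higher in siAATF. Counts of lower genes stayed within 1.5 times the main count of 39 except with at least 10 counts in every library, which left only 4 genes to test (4 lower, 1 of them S-phase and 1 mitotic, against 24.6% of all genes in that test), and without siControl replicate 3. Leaving out 1 library gave 23 to 41 lower genes, 9 to 13 S-phase genes (12 in the main test) and 12 to 23 mitotic genes (23 in the main test). The lowest of each came without siControl replicate 3. Of all genes, 9.7 to 14.7% were lower in these fits. Thinning to the smallest mouse total left 36 genes to test and called 12 mitotic genes lower, against 19.1% of all genes. Scaling by library size alone moved the median of all genes from 0.50 to -1.30, called 46 of the 46 lower, and turned 3169 higher and 2593 lower genes overall into 747 and 7276. The median log2 fold change of the cell cycle genes tested went from -3.17 to -5.03 by library size alone and to -4.79 after thinning. Mki67 went from -3.81 to -5.69 and -7.04, whereas Uhrf1, at -4.79 in the main test, was -4.59 after thinning. The summed level (log2 ratio -2.52) ranged from -2.87 to -2.28 with 1 library left out, was -4.34 by library size alone and -3.87 after thinning, and reversed to 1.68 with CPM of all gene counts. The mitotic to S-phase ratio stayed negative with 1 library left out, at -1.24 to -0.54. With at least 10 counts in every library it compared single genes, Top2a with Rrm1 (-1.97), and says nothing of the lists, and after thinning, which left an S-phase sum of 0, it could not be computed. With the replicate block 41 genes were lower, 13 S-phase and 24 mitotic, against 16.2% of all genes. Same-numbered libraries deviated together with correlations of 0.145, 0.212 and -0.023, and siControl replicate 1 correlated best with siAATF replicate 3 (0.176), so the numbers were not taken as pairs. The cause of these differences was not tested.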
